A study of Homo sapiens with 12 samples.

Results

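Phosphatidylethanolamine (PE) and phosphatidylserine (PS) synthesis was examined through 8 enzymes chosen by gene symbol, PISD, PTDSS1, PTDSS2, PCYT2, ETNK1, SELENOI, CEPT1 and PEMT, out of 36924 genes with at least 1 count in any library. All 8 passed the expression filters of the comparisons below. The cells were iMGLs, that is, microglia-like cells grown out of WTC11, a human induced pluripotent stem cell line in wide use. Bulk sequencing of polyA RNA was done on WT clones named J, K, L and on LACTB KO clones named A, B, C, with 2 differentiations of every clone, for a total of 12 libraries (6 from 3 clones of each genotype). The clones of both genotypes came out of CRISPR editing of this 1 line, all libraries were grown with IL34, TGFb and MCSF, all received CX3CL1 and CD200 on day 24 and were collected on day 27 by the sample labels, and none had another treatment. The labels give the differentiation as a batch.

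PS and PE are the serine and ethanolamine phospholipids of cell membranes, and PS shown on the outer leaflet is a signal by which microglia recognise cells to engulf. In the endoplasmic reticulum PTDSS1 makes PS by exchanging the head group of phosphatidylcholine (PC), and PTDSS2 does so from PE. PS then travels to the inner mitochondrial membrane, where PISD decarboxylates it to PE. The other route, the CDP-ethanolamine branch, runs through ETNK1 (ethanolamine kinase), PCYT2 (which makes CDP-ethanolamine and sets the rate) and a last step by SELENOI, a selenoprotein, or CEPT1, which also makes PC. PEMT methylates PE to PC and is best known from liver. LACTB is a serine protease of mitochondria that has been linked to PISD protein in breast cancer cells, and here the transcripts of PISD and of its neighbours in the pathway were compared between WT and LACTB KO iMGLs. RNA alone was measured, so levels of enzymes and lipids are not given.

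The 250 bases before the RefSeq start (GRCh38.p14) are shown for PISD, the mitochondrial enzyme, and for PCYT2, ETNK1 and SELENOI, the members with an unadjusted p under 0.05 between differentiations. They are written 5′ to 3′ on the strand of the gene, from chr22:31662216-31662465 (minus strand), chr17:81911400-81911649 (minus strand), chr12:22624921-22625170 (plus strand) and chr2:26345893-26346142 (plus strand), and capitals mark CCAAT and GGGCGG on either strand (ATTGG and CCGCCC when read on the other).
PISD: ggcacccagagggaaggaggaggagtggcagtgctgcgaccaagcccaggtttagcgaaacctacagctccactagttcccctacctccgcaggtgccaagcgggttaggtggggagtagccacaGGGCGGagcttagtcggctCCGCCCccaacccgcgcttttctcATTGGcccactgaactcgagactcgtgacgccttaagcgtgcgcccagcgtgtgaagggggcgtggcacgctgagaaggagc
PCYT2: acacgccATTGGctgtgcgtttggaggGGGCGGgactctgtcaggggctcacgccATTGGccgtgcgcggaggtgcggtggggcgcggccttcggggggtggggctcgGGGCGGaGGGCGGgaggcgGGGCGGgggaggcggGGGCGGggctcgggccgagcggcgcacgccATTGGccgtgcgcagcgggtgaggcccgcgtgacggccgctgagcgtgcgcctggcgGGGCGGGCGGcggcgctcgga
ETNK1: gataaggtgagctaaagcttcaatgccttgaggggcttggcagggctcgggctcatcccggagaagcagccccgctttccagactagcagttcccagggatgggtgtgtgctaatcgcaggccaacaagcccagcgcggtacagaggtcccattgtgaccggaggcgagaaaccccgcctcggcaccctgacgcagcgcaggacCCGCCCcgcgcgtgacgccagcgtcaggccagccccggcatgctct
SELENOI: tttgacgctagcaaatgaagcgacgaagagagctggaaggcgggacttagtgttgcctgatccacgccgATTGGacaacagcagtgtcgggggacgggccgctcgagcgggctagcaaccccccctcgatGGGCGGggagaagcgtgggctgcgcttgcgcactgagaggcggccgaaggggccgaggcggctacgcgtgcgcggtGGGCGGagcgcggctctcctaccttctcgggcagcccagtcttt
The PCYT2 window held 3 matches to CCAAT and 7 to GGGCGG, overlapping matches counted, and 80.0% of its bases were G or C. Each CCAAT match of PCYT2 lay in the same 12 bases, cacgccATTGGc, which recurred with its ATTGG starting 243, 195 and 78 bases before the start. Those 12 bases, read off this window, were in 2 of the 35116 windows of the same length, this one included. PCYT2 has 2 windows in the set, and whether the other hit is its second window was not checked. A window with 3 or more CCAAT matches was found for 2.93% of genes' starts and one with 3 or more GGGCGG matches for 13.9%, while 32.0% and 42.6% held at least 1. PISD and SELENOI held 1 CCAAT and 2 GGGCGG matches each, and ETNK1 held 0 and 1. None of these 4 windows held TATAAA (in 10.7% of windows), CACGTG (6.35%) or TCACNCCAC (0.883%). A match is a match of letters and was not tested as a binding site. The window nearest to the 5′ end of the gene in GENCODE version 44 was used where RefSeq gave several, and for SELENOI the 2 annotations place that end 37596 bases apart.

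Levels are given as CPM, estimated counts scaled to a common library size with edgeR's TMM factors. The libraries held between 24153233 and 28406943 estimated counts, and the members were read at between 129 counts (PEMT) and 6299 counts (ETNK1) per library. In the genotype check, LACTB ranged from 71.5 to 97.9 CPM over WT libraries and from 7.48 to 9.77 CPM over clones A and C. Clone B, with 44.3 and 51.6 CPM, kept much of the transcript. The study reports that both alleles of all clones were sequenced for indels that give frameshifts or premature stops. Transcript that remains does not show how much LACTB protein was left. Of 12 microglial markers, 11 were at 1 CPM or more in every library, while TMEM119 ranged from 0.315 to 10.7 CPM. The summed level of all 12 was 5317 to 5984 CPM over WT libraries and 5244 to 6213 CPM over LACTB KO libraries. Stromal markers (12 genes, led by COL1A1, COL1A2 and COL3A1) summed to 24.7 to 9926 CPM over WT libraries and 21.7 to 1058 CPM over LACTB KO libraries. They were highest in differentiation 1 of WT clone J, at 9926 CPM, and in differentiation 2 of WT clone K, at 4766 CPM. Of the stromal markers LUM, DCN and PDGFRA were at 0 in at least 1 library. Proliferation markers (6 genes) summed to 213.5 to 439.7 CPM over WT libraries and 193.8 to 428.5 CPM over LACTB KO libraries. In bulk RNA fewer cells of a type and less RNA per cell cannot be told apart.

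Compared per length of exons, PTDSS1 and ETNK1 stood at the top. That length was the union of all annotated exons of a gene, not the length of the transcript expressed, and the order depends on it. By CPM alone ETNK1 (mean 205.8) was above PTDSS1 (164.1), and CEPT1 (56.5) and SELENOI (51.9) were above PISD (43.1). PTDSS1 averaged 26.9 ± 2.09 CPM per kb of exons (SD, n = 12 libraries) and ETNK1 15.5 ± 1.53 CPM per kb. PISD followed at 8.99 ± 0.617 CPM per kb. The ranges of these levels over the 12 libraries did not overlap from PTDSS1 to ETNK1, from ETNK1 to PISD, or from PISD to CEPT1. CEPT1 (6.53 ± 0.427 CPM per kb), SELENOI (6.12 ± 0.644 CPM per kb) and PCYT2 (5.20 ± 0.971 CPM per kb) had ranges that overlapped each other. PEMT (3.75 ± 0.620 CPM per kb) and PTDSS2 (3.65 ± 0.628 CPM per kb) were the lowest, and their ranges overlapped too, so the order of these 2 is within the spread. Of the 2 PS synthases, PTDSS1, which starts from PC, was thus above PTDSS2, which starts from PE, in every library.

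**Figure D1:**
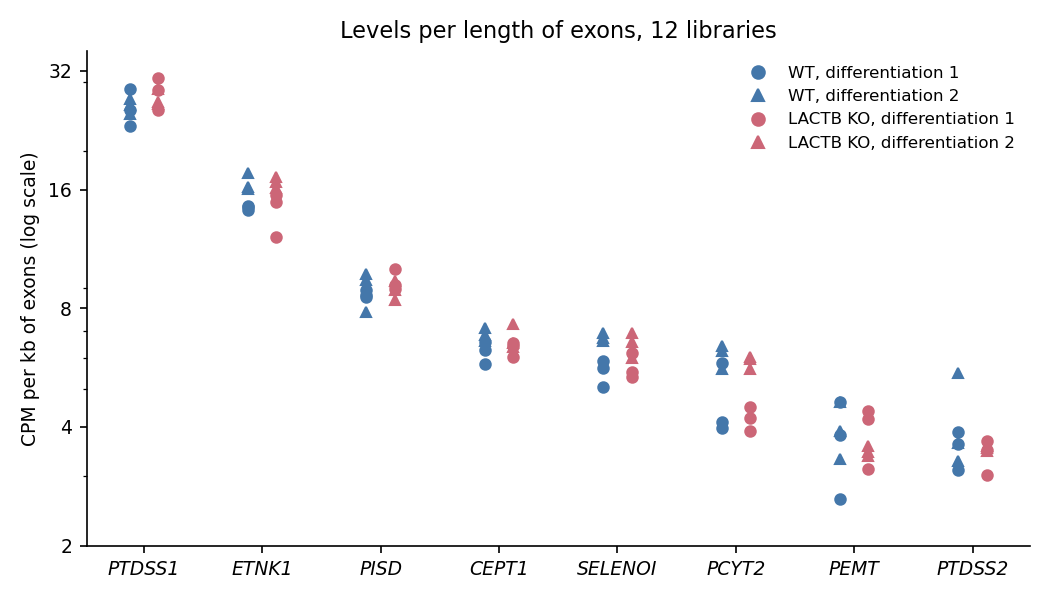
Level of each enzyme in CPM per kb of exons on a log axis, 1 point per library, with blue for WT, red for LACTB KO, circles for differentiation 1 and triangles for differentiation 2. PTDSS1 lies between 23.3 and 30.7 and PTDSS2 between 3.03 and 5.49, and within each gene the colours mix.

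The spread over the 12 libraries was narrowest for CEPT1 (coefficient of variation of CPM 6.53%), PISD (6.87%) and PTDSS1 (7.78%). ETNK1 (9.89%) and SELENOI (10.5%) lay between, and PEMT (16.5%), PTDSS2 (17.2%) and PCYT2 (18.7%) varied most. The highest library was from WT clone J for PCYT2, PTDSS2 and PEMT alike.

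In LACTB KO iMGLs the transcripts of PE and PS synthesis were not detectably different from those in WT iMGLs. For the comparison, the counts of both libraries of a clone were summed and the 3 LACTB KO clones were set against the 3 WT clones with edgeR's quasi-likelihood test over 17577 genes. No member had an adjusted p under 0.05, and no gene had one among all tested (0%), nor did any in limma voom, while DESeq2 gave 171 genes, none of them a member. LACTB itself, the edited gene, was not called in edgeR either (log2 fold change -1.87, SE 0.675, interval -3.48 to -0.27, adjusted p = 0.735). A lack of calls in edgeR therefore does not show a lack of difference. At an unadjusted p under 0.05 the test held 0 of the 8 members, against 1118 genes or 6.36% of those tested. The clone means of the 2 genotypes overlapped for all 8 members, as they did for most genes (they did not for 10.3% of all genes). The median log2 fold change of the members was -0.0044, beside 0.0067 for all genes, and 3 members were above 0 and 5 below.

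**Figure D2:**
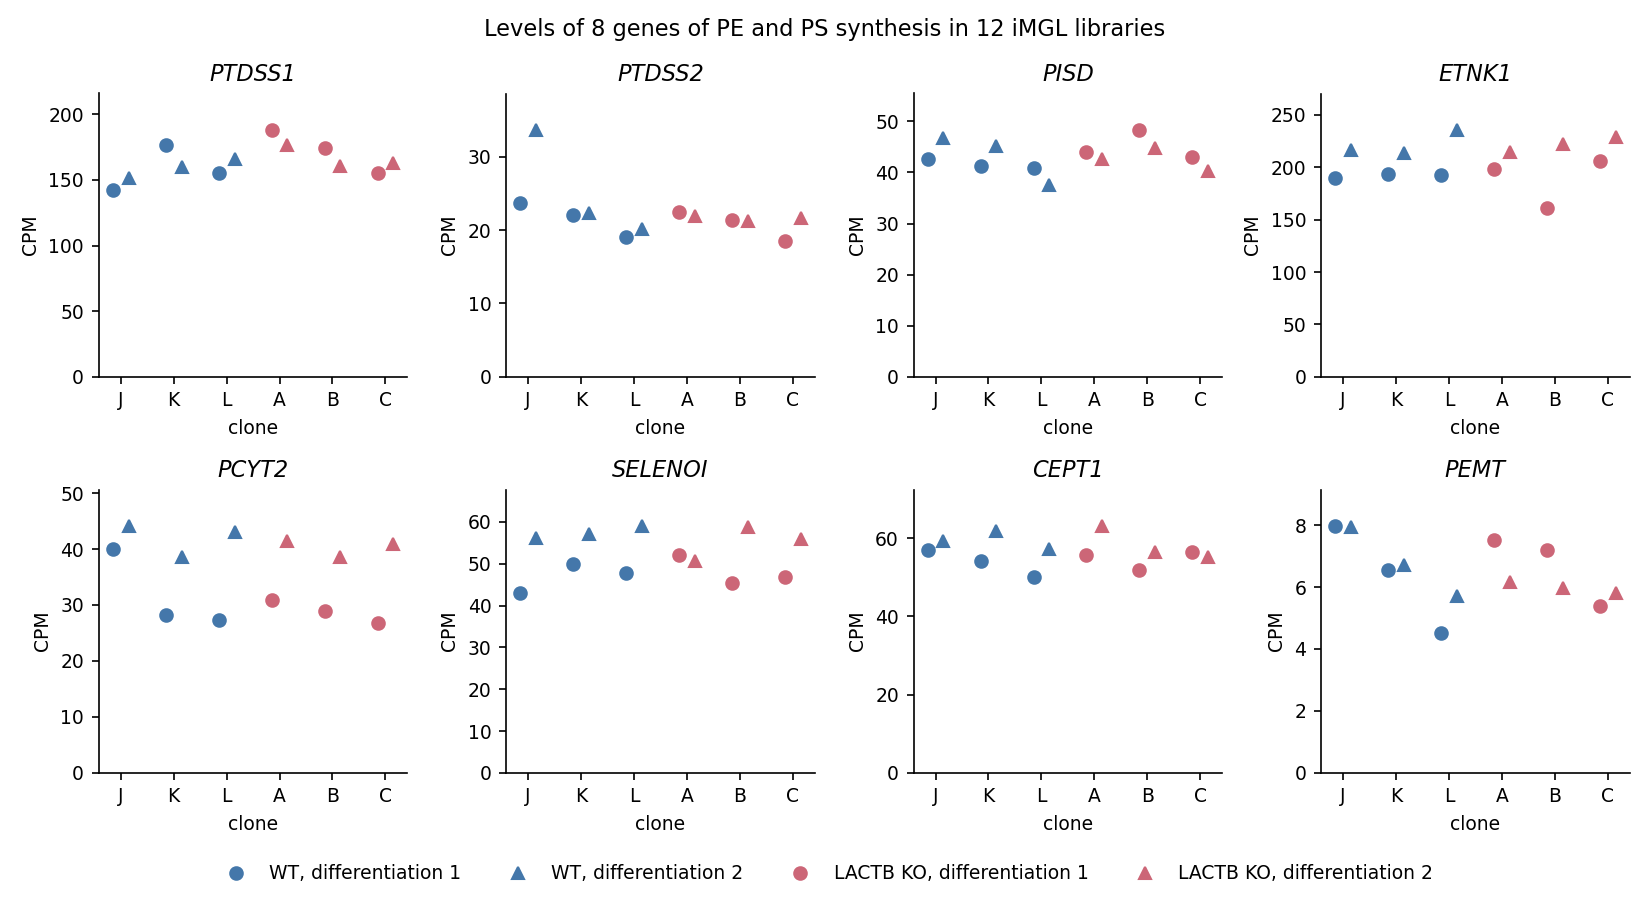
CPM of each of the 8 enzymes by clone, WT clones J, K and L in blue, LACTB KO clones A, B, C in red, circles for differentiation 1 and triangles for differentiation 2, each axis starting at 0. WT and LACTB KO points overlap for PISD, between 37.5 and 48.2 CPM, PTDSS2 stands out in clone J, and the triangles of PCYT2 and ETNK1 lie above the circles of the same clone.

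PISD (ENSG00000241878.12; GRCh38 chromosome 22, 31618491 to 31662221, minus strand), the PS decarboxylase of mitochondria, had nearly the same level in both genotypes. In WT clones J, K and L its level in differentiation 1 was 42.6, 41.3 and 40.9 CPM, followed by 46.8, 45.2 and 37.5 CPM in differentiation 2. The LACTB KO clones, in the order A, B, C, had 44.0, 48.2 and 42.9 CPM and then 42.6, 44.8 and 40.2 CPM. The lowest library was WT and the highest was from clone B, which also kept the most LACTB of the edited clones, and the genotypes overlapped over most of their range. WT libraries averaged 42.4 ± 3.30 CPM and LACTB KO libraries 43.8 ± 2.67 CPM (SD, 6 libraries of 3 clones each). The log2 fold change was 0.05 (SE 0.0775, adjusted p = 0.911), with a 95% interval of the fold from 0.913 to 1.18. Between clone means the exact two-sided permutation test gave p = 0.5, where 3 clones against 3 cannot give less than 0.1. The log2 difference was 0.11 in differentiation 1 alone (adjusted p = 0.983) and -0.02 in differentiation 2 alone (adjusted p = 0.979).

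The PS synthases pointed in opposite directions, neither beyond the spread between clones. PTDSS1 (ENSG00000156471.13; GRCh38 chromosome 8, 96261902 to 96336995, plus strand) had a lowest, median and highest library of 142.0, 157.7 and 176.3 CPM in WT, against 155.4, 168.9 and 187.7 CPM in LACTB KO. The highest library was clone A in differentiation 1 and the lowest was clone J in differentiation 1, with wide overlap between. Its log2 fold change was 0.10 (SE 0.0839, interval -0.10 to 0.30, adjusted p = 0.878), 0.13 in differentiation 1 and 0.07 in differentiation 2.

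PTDSS2 (ENSG00000174915.12; chromosome 11, 448268 to 491399, plus strand) reached 23.8 and 33.6 CPM in the libraries of WT clone J. The other WT clones had less, with 22.1 and 22.3 CPM for K and 19.1 and 20.1 CPM for L. The 6 LACTB KO libraries held 18.5 to 22.5 CPM. Both libraries of clone J lay above the other 10 libraries, in which the genotypes overlapped. The log2 fold change of -0.14 (SE 0.144, interval -0.49 to 0.20, adjusted p = 0.883) became 0.02 without clone J, so its direction rests on that clone. Within differentiations it was -0.06 in 1 and -0.23 in 2. In the library with 33.6 CPM of PTDSS2 the stromal markers summed to 631 CPM. Markers of pluripotent cells (6 listed, 5 with a count) summed to 21.1 CPM there, the most of any library. Of these only L1TD1 (1.84 to 21.0 CPM) reached 1 CPM in any library. The part of these markers in the level was not tested.

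Of the CDP-ethanolamine branch, ETNK1 (ENSG00000139163.16; chromosome 12, 22625075 to 22690665, plus strand) averaged 206.5 ± 18.0 CPM in WT libraries and 205.1 ± 24.2 CPM in LACTB KO libraries (SD, n = 6). Its log2 fold change of -0.00087 (SE 0.0710, interval -0.17 to 0.17, adjusted p = 0.998) was the smallest of the members. SELENOI (ENSG00000138018.19; chromosome 2, 26308547 to 26395885, plus strand) averaged 52.2 ± 6.23 and 51.7 ± 5.16 CPM, with a log2 fold change of -0.01 (SE 0.0605, interval -0.15 to 0.14, adjusted p = 0.980). The interval of SELENOI was the narrowest of the 8 members. CEPT1 (ENSG00000134255.16; chromosome 1, 111139479 to 111185104, plus strand) averaged 56.6 ± 4.11 and 56.5 ± 3.61 CPM, with a log2 fold change of 0.01 (SE 0.0680, interval -0.16 to 0.17, adjusted p = 0.988). PCYT2 (ENSG00000185813.11; chromosome 17, 81900958 to 81911432, minus strand) averaged 36.9 ± 7.31 and 34.6 ± 6.45 CPM, with a log2 fold change of -0.08 (SE 0.0977, interval -0.31 to 0.15, adjusted p = 0.904) that became 0.02 without clone J. For these 4 genes the differences lay inside the spread between clones.

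Within differentiations the values of the branch did not pass the test either. In differentiation 1 alone ETNK1 differed by -0.03, SELENOI by 0.04, CEPT1 by 0.03 and PCYT2 by -0.14 on the log2 scale between genotypes. In differentiation 2 alone SELENOI differed by -0.06, CEPT1 by -0.03 and PCYT2 by -0.06. ETNK1 had the value nearest to 0 in differentiation 2. SELENOI and CEPT1 changed sign between differentiations, and in differentiation 1 all 4 values were larger in size than with both differentiations summed.

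PEMT (ENSG00000133027.18; chromosome 17, 17505563 to 17591708, minus strand) was the least abundant in CPM. Its lowest, median and highest library were 4.52, 6.64 and 7.96 CPM in WT, against 5.38, 6.06 and 7.53 CPM in LACTB KO. The 3 WT clones stood in order J, K and L without mixing, while their range enclosed that of the LACTB KO libraries. Its log2 fold change was -0.05 (SE 0.191, adjusted p = 0.965), with the widest interval of the members, -0.50 to 0.41. The value was 0.08 in differentiation 1, -0.19 in differentiation 2 and 0.105 without clone J, so no direction can be given.

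Because clone B kept more LACTB transcript than A and C, the comparison was also read without it. PISD then differed by 0.01, PTDSS1 by 0.11, PTDSS2 by -0.14, PCYT2 by -0.06, ETNK1 by 0.05, SELENOI by -0.01, CEPT1 by 0.04 and PEMT by -0.07 on the log2 scale. The smallest adjusted p of the 8 was 0.966, in a fit that holds 2 LACTB KO clones.

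**Figure D3:**
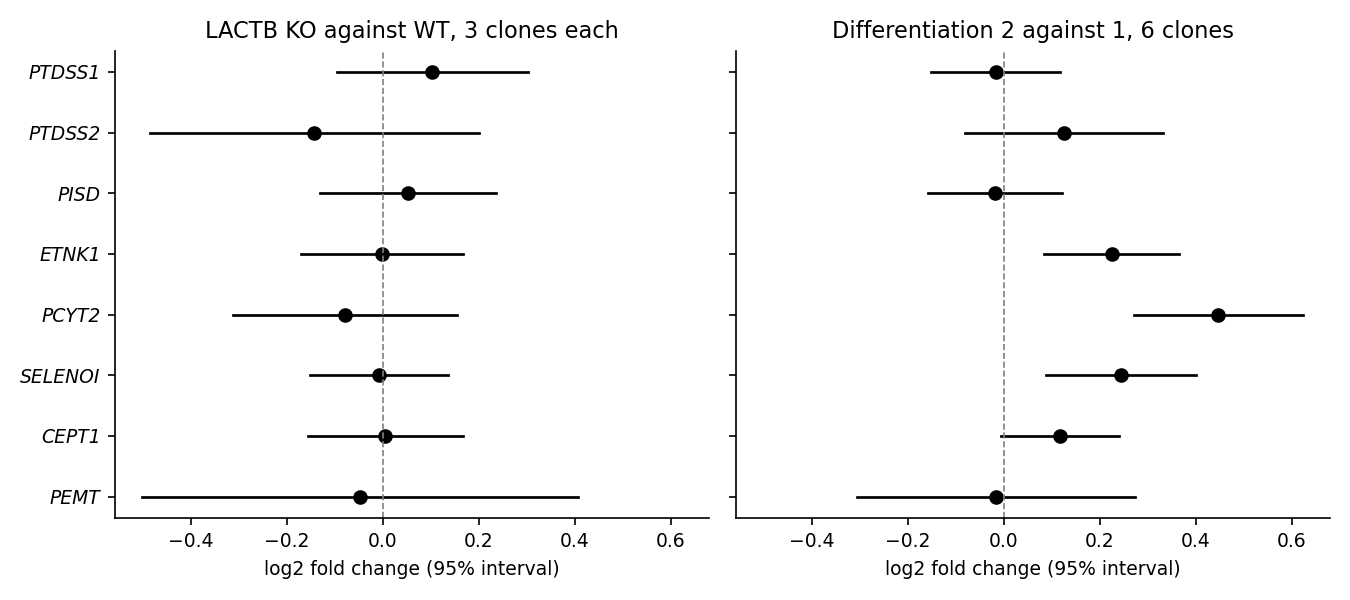
Log2 fold change of each enzyme with its 95% interval from edgeR, at left for LACTB KO against WT (3 clones each) and at right for differentiation 2 against 1 within 6 clones. At left all 8 intervals include 0. At right those of PCYT2 (0.27 to 0.62), ETNK1 (0.08 to 0.37) and SELENOI (0.09 to 0.40) lie above 0.

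Between the 2 differentiations, by contrast, genes of the CDP-ethanolamine branch had higher values in differentiation 2, led by PCYT2, without passing the adjusted threshold in edgeR. The comparison was made within clones over 16681 genes with edgeR. No gene had an adjusted p under 0.05 (0%) in edgeR and 307 had one in DESeq2, while 1552 genes or 9.30% had an unadjusted p under 0.05, and 5.60% had one and were higher in differentiation 2. Among the members 3 of 8 were in that last group, PCYT2, ETNK1 and SELENOI, all of the branch. The median log2 fold change of the 8 members was 0.12, beside -0.0043 for all genes. The differentiation is a batch of the culture, so that handling, time and cell state cannot be told apart in this comparison.

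PCYT2 had 40.0, 28.3 and 27.3 CPM in differentiation 1 of clones J, K and L and 30.9, 29.0 and 26.8 CPM in A, B and C. In differentiation 2 it had 44.0, 38.6 and 43.0 CPM in J, K and L and 41.4, 38.5 and 40.9 CPM in A, B and C. Every clone was higher in differentiation 2, and the only library of differentiation 1 that reached the range of differentiation 2 was that of clone J. The means were 30.4 ± 4.92 CPM and 41.1 ± 2.24 CPM (SD, n = 6). The fold was 1.36 (interval 1.21 to 1.54), or 0.45 on the log2 scale (SE 0.0763), with an adjusted p of 0.149 in edgeR. Of the genes tested, 3.54% were higher in differentiation 2 in all 6 clones. The difference in PCYT2 was 0.14 in clone J and 0.41 to 0.65 in the other 5 on the log2 scale.

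This result for PCYT2 sat near the threshold and moved over it with the processing. The adjusted p was 0.0481 without clone J (38 genes higher, 0.225% of those tested), 0.0492 with no expression filter (70 genes higher, 0.190%) and 0.000414 with DESeq2 (234 genes higher, 2.15% of those given an adjusted p). DESeq2 also placed ETNK1 under the threshold (adjusted p = 0.0391), but not SELENOI (0.106). With RLE normalization or with any other clone left out, PCYT2 stayed above it in edgeR.

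In clone J the library of differentiation 1, with its high PCYT2, was also the one with a stromal sum of 9926 CPM. Leaving out clones J and K, which held the highest stromal sums, gave PCYT2 a log2 fold change of 0.53 with an adjusted p of 0.147 (a choice made with the data in view). Proliferation markers were higher in differentiation 2 in 5 of 6 clones, K being the exception, and their part in the result was not tested. Exons of PCYT2 share 28.3% of their bases with NPB, a gene on the opposite strand, and the library kit does not mark strand. Without strand, reads from shared exons cannot be told apart. NPB was counted at 22 to 61 reads per library (0.797 to 2.25 CPM) and differed by 0.66 on the log2 scale between differentiations (SE 0.208, adjusted p = 0.379), and its part in the level of PCYT2 was not tested. Opposite-strand neighbours also share 5.74% of the exon bases of SELENOI (ADGRF3, 0.152 to 0.635 CPM), 4.78% of those of CEPT1 (DRAM2, 46.7 to 66.9 CPM) and 2.05% of those of PISD (SFI1, 10.0 to 14.3 CPM). Long noncoding RNAs on the opposite strand share 7.47% and 1.36% of the exon bases of CEPT1 and 10.3% and 6.51% of those of PEMT, and ANAPC11 shares 0.495% of those of PCYT2.

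ETNK1 had 189.3, 193.1 and 192.4 CPM in differentiation 1 of clones J, K and L, and 216.0, 213.2 and 235.1 CPM in differentiation 2. In clones A, B and C it had 198.1, 161.3 and 205.6 CPM in differentiation 1 and 214.3, 222.0 and 229.3 CPM in differentiation 2. Its libraries thus ranged from 161.3 to 205.6 CPM in differentiation 1 and from 213.2 to 235.1 CPM in differentiation 2. How many of all genes had such separate ranges was not counted. The fold was 1.17, or 0.22 on the log2 scale (SE 0.0612, interval 0.08 to 0.37, adjusted p = 0.338). All 6 clones were higher in differentiation 2, which held for 3.54% of the genes tested.

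SELENOI averaged 47.6 ± 3.26 CPM in differentiation 1 and 56.3 ± 3.04 CPM in differentiation 2 (SD, n = 6). Its log2 fold change was 0.24 (SE 0.0678, interval 0.09 to 0.40, adjusted p = 0.340). The clone that did not follow was A, with 52.2 and 50.7 CPM, and the other 5 were higher in differentiation 2. CEPT1 had means of 54.2 ± 2.73 and 58.9 ± 3.10 CPM and a log2 fold change of 0.12 (SE 0.0532, interval -0.01 to 0.24, adjusted p = 0.561), with clone C as the exception.

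**Figure D4:**
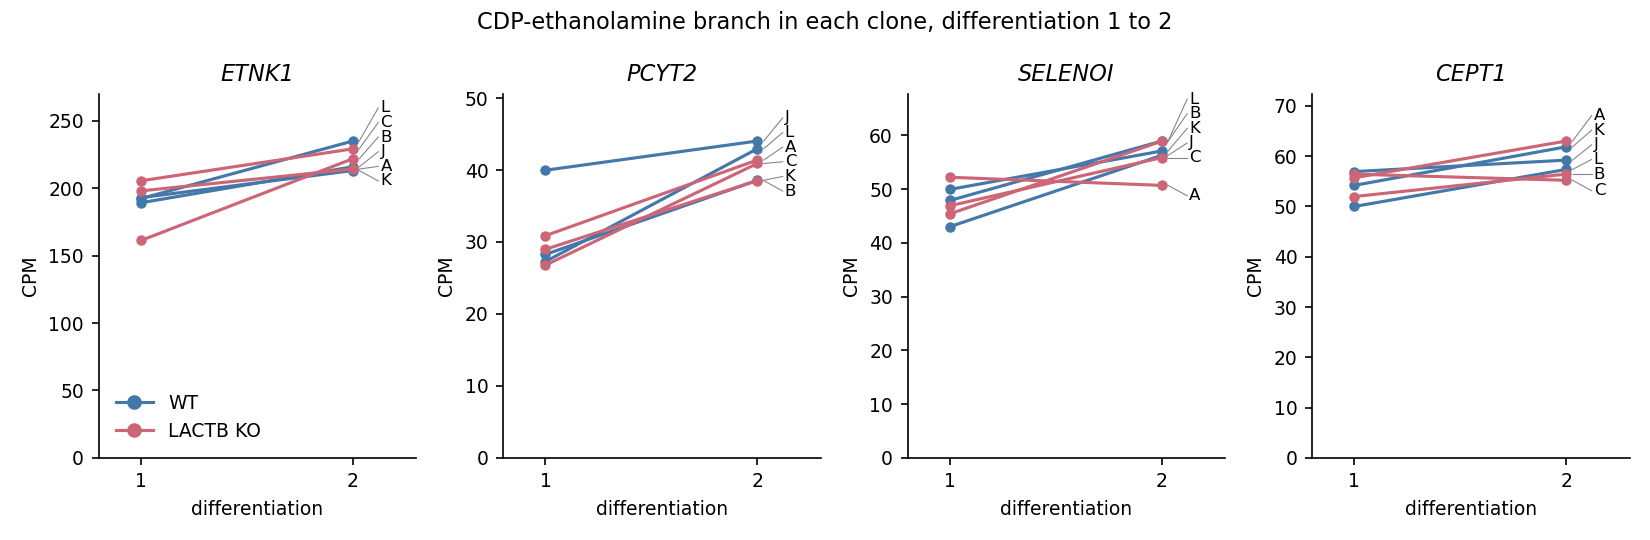
CPM of the 4 genes of the CDP-ethanolamine branch in differentiation 1 and 2, with a line for each clone, WT in blue and LACTB KO in red, axes starting at 0. All 6 lines run upward for ETNK1 and PCYT2, the line of clone J for PCYT2 starts high at 40.0 CPM, and 5 of 6 run upward for SELENOI and CEPT1.

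For the enzymes of the PS route and PEMT the intervals between differentiations included 0, as for CEPT1. PISD had means of 43.3 and 42.8 CPM in differentiations 1 and 2 (log2 fold change -0.02, SE 0.0605, interval -0.16 to 0.12, adjusted p = 0.964) and was higher in differentiation 2 in 2 of 6 clones. PTDSS1 differed by -0.02 (SE 0.0582, adjusted p = 0.967) and was higher in 3 of 6 clones. PTDSS2 differed by 0.13 (SE 0.0894, adjusted p = 0.732) with 4 of 6 clones higher, and PEMT by -0.02 (SE 0.126, adjusted p = 0.986) with 3 of 6. A difference between the branch and the PS route was not tested as such.

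The effect of differentiation was not detectably different between genotypes. The interaction of genotype and differentiation was tested for all 16681 genes, of which none passed adjustment in edgeR (0%) or in DESeq2, and 153 or 0.917% had an unadjusted p under 0.05, with 0 of the 8 members among them. The interaction estimates of the members, on the log2 scale as LACTB KO minus WT, ranged from -0.28 (PEMT, SE 0.253) to 0.06 (PCYT2, SE 0.164), with -0.13 (SE 0.122) for PISD. All had an adjusted p of 0.9999. The intervals were wide, for PCYT2 -0.33 to 0.45.

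Across the step between differentiations PCYT2 ran with the genes of sterol synthesis. By Pearson correlation of log2 CPM over the 12 libraries, the 3 genes most like PCYT2 among those tested were MVK (r = 0.974), a kinase of the mevalonate pathway, HMGCS1 (r = 0.971), which makes the substrate of HMG-CoA reductase, and EBP (r = 0.968), a sterol isomerase. After this was seen, 22 genes of sterol synthesis and uptake were listed from background knowledge. The correlation with PCYT2 was above 0.9 for 17 of the 22 (median 0.949, range 0.254 for PMVK to 0.974), beside 36 of 16680 genes (0.216%). For the other 7 members it was above 0.9 for 0 of the 22, with medians from -0.405 (PTDSS1) over -0.120 (PISD) to 0.692 (ETNK1). Few of all genes reached that cutoff with these members, from 0 (PISD and CEPT1) to 105 (PTDSS2) of 16680. Below the cutoff, r was positive for all 22 genes with CEPT1 (median 0.69), SELENOI (0.549) and PTDSS2 (0.442). It was positive for 21 with ETNK1 and PEMT, for 3 with PISD and for 1 with PTDSS1. The list was made because of the leading genes, so its count describes these libraries and is no independent evidence.

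The libraries share culture rounds, and the points of these correlations fell into separate sets. HMGCS1 had 124.4 to 154.0 CPM in differentiation 1 of clones K, L, A, B and C. In clone J it had 322.0 CPM in differentiation 1, and all 6 clones had 305.6 to 421.0 CPM in differentiation 2. The library of clone J in differentiation 1 therefore sat with differentiation 2 for HMGCS1, and so it did for MVK (38.3 CPM, beside 14.0 to 19.5 CPM in the other 5 and 35.4 to 48.5 CPM in differentiation 2) and for PCYT2. With the mean of each differentiation removed the median r of the 22 genes was 0.841, but without clone J it was 0.950 over 10 libraries and 0.127 (range -0.780 to 0.917) once the means of the differentiations were removed too. The likeness therefore rests on the step between differentiations and on clone J, and among the rest of the libraries the median was low. Across differentiations 21 of the 22 genes were higher in 2, with a median log2 fold change of 0.91, of which 21 had an unadjusted p under 0.05 and 0 an adjusted one in edgeR (smallest adjusted p = 0.0986). Over all genes 5.60% had an unadjusted p under 0.05 and were higher. The list was made because its leading genes ran with PCYT2, itself higher in differentiation 2. These counts therefore describe the libraries and are no independent evidence. HMGCS1 differed by 1.17 (adjusted p = 0.109), MVK by 0.97 (0.0986) and EBP by 0.69 (0.109), each more than PCYT2.

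**Figure D5:**
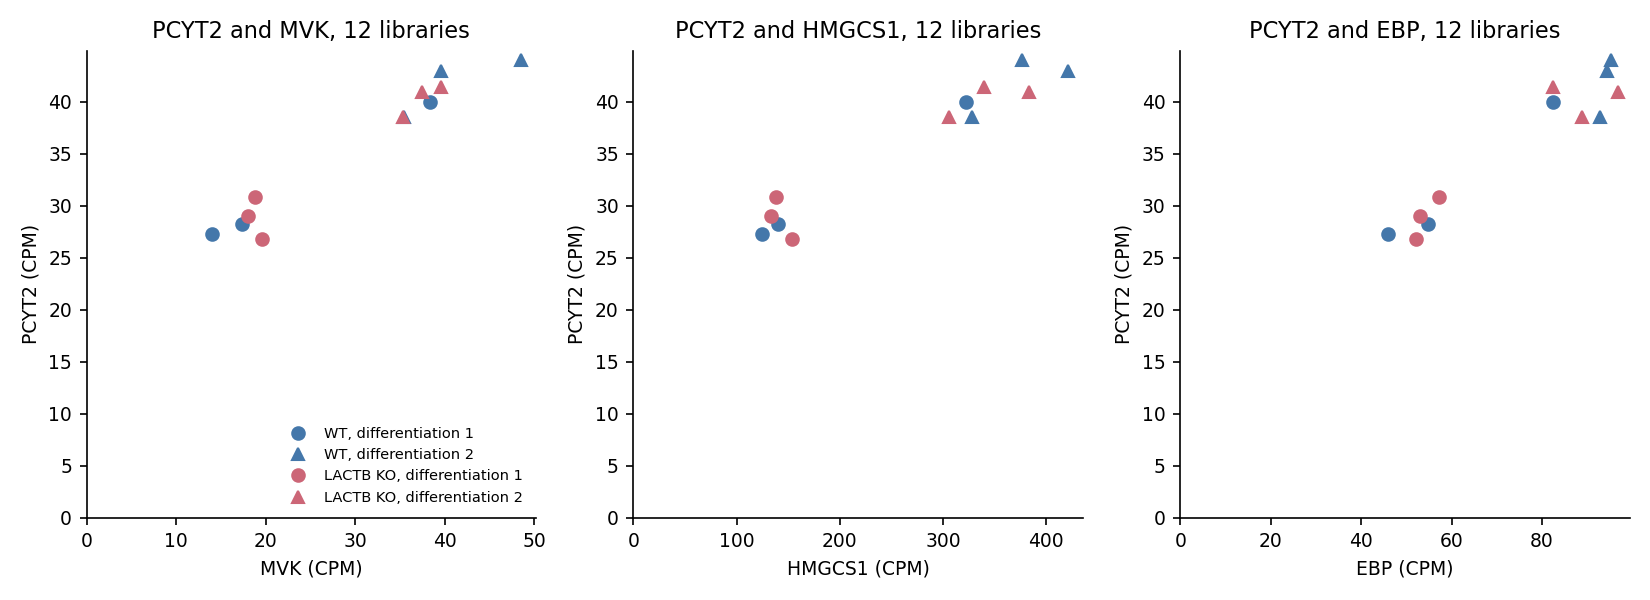
PCYT2 in CPM against MVK, HMGCS1 and EBP in CPM, 1 point per library, coloured by genotype and shaped by differentiation, axes starting at 0. The libraries form a lower set of 5 from differentiation 1 and an upper set that holds the 6 of differentiation 2 and the blue circle of clone J.

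The genes around this pathway were counted in 7 lists (PE turnover, acyl remodelling, the CDP-choline branch, PS transfer to mitochondria, cardiolipin synthesis, PS flipping and exposure, and supply of serine, choline and ethanolamine). Between genotypes no gene of any list had an adjusted p under 0.05, and 3 had an unadjusted p under 0.05, all with lower estimates in LACTB KO, among 64 genes tested. Over all genes the share was 6.36%, and 977 of those 1118 genes were lower. They were ATP9A, a flippase of endosomes (log2 fold change -1.31, SE 0.415, adjusted p = 0.726), PSAT1, an enzyme of serine synthesis (-0.85, SE 0.305, adjusted p = 0.735), and SGPL1, the sphingosine phosphate lyase that releases phosphoethanolamine (-0.58, SE 0.244, adjusted p = 0.776). ATP9A had 2.28 to 9.21 CPM in WT libraries and 0.942 to 3.46 CPM in LACTB KO libraries. PSAT1 had 13.3 to 51.2 CPM in WT libraries and 11.4 to 18.1 CPM in LACTB KO libraries, and SGPL1 123.4 to 384.6 CPM and 114.4 to 133.7 CPM. For all 3 the WT libraries spread further upward and the genotypes overlapped.

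The other genes named from the lists had an unadjusted p above 0.05. MBOAT2, which reacylates lysophospholipids, differed by -0.40 (adjusted p = 0.823), OSBPL5, which exchanges PS between membranes, by -0.72 (0.819), FLVCR2, a choline carrier, by -0.45 (0.838) and ATP8A1, a PS flippase, by 0.29 (0.878). CHPT1 and CHKA of the CDP-choline branch differed by 0.16 and -0.11, CDS2 and LCLAT1 of the cardiolipin list by -0.25 and 0.24, GDE1 by -0.10, TRIAP1 by 0.10 and ABHD16A by -0.10. The medians of the 7 lists lay between -0.10 (acyl remodelling) and 0.06 (PS flipping and exposure), beside 0.0067 for all genes. PLA1A and ETNPPL did not pass the expression filter.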

How the data were processed

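Bulk polyA RNA-seq of 12 WTC11 iMGL libraries was analysed. Adapters were removed with Cutadapt and paired reads aligned to hg38 with STAR, per the methods of the study. The counting tool, its annotation and its strand setting are not given in the sources used here. Estimated counts of genes, not scaled for depth, were deposited by the authors, and fractions made up 10.8% to 11.5% of the values. Whole counts had been assumed in planning, so the values were rounded. The study's methods give collection 1 day later than the labels.

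The counts of each clone were summed over its differentiations, and genotypes were compared between clones with edgeR 4.0.16 in R 4.3.3 (TMM, filterByExpr, quasi-likelihood test, Benjamini-Hochberg adjustment over all genes tested, threshold 0.05). Differentiations and their interaction with genotype were tested over 12 libraries, with a fixed term for each clone. The study fitted a linear mixed model with DREAM, for which limma voom 3.58.1 with a correlation within clones (0.0629) stood in among the alternatives, beside DESeq2 1.42.0. The labels say that the clones are independent. Log2 CPM used a prior count of 2. Exact permutation tests of single values between clones used scipy 1.17.1. Of 62703 gene identifiers, 62686 were found in GENCODE version 44, which gave coordinates and exon lengths. Promoters came from RefSeq, in which 7 of the 8 members were matched (PTDSS1 was not).

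The members and lists were chosen with earlier results of these data known, and the sterol genes after the likeness of PCYT2 was seen. All members were named, with LACTB, the 2 genes of each list with the smallest p between genotypes, and the 3 genes most correlated with each member. Leaving out clones J and K together was an alternative chosen after seeing the data. The edgeR fits were also run on simulated counts, which held no set differences between clones beyond the effect put in. The outcome of those runs is not given here. Same-numbered differentiations of different clones share a batch by the labels.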

Additional observations from a re-analysis of the deposited data

Results flagged for a closer look

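In each of the 16 groups formed by 8 members and 2 genotypes, the gap from the extreme library to its nearest neighbour was divided by the range over 6 libraries and set against Dixon's 95% critical value, which chance passes in about 1 of 20 groups. Both results past it were in PTDSS2. The highest WT library, clone J in differentiation 2 with 33.6 CPM, had a gap of 0.676 of the range. The lowest LACTB KO library, clone C in differentiation 1 with 18.5 CPM, had a gap of 0.677 of the range, in a group that spans only 18.5 to 22.5 CPM.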

How the results depend on the processing

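The number of genes with an adjusted p under 0.05 between genotypes was 0 in edgeR, 2 without an expression filter, 171 with DESeq2 (4 higher and 167 lower, none of them a member) and 0 to 1 with each clone left out. Between differentiations it was 0 in edgeR, 80 without a filter, 307 with DESeq2 (which gave no adjusted p for 5821 genes), 22 without clones J and K, and 0 to 44 with each clone left out, the 44 without WT clone J. For the interaction it was 0 in every alternative run, DESeq2 included, while 153 genes had an unadjusted p under 0.05 in edgeR, 161 in DESeq2, and from 72 (without WT clone J) to 1325 (without WT clone K) with each clone left out. With the differentiation as a replicate block the number between genotypes was 0, PISD differed by 0.0476 on the log2 scale (adjusted p = 0.887), and the block changed no call. That fit had no term for the clone, so it counted the 2 libraries of a clone as separate replicates. The cause of these shifts was not tested.

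No member passed the adjusted threshold between genotypes or for the interaction in any alternative run, but signs turned (log2 scale). Between genotypes this held for ETNK1 with RLE normalization (0.000184), DESeq2 (0.000171) and no filter (0.0124), SELENOI with no filter (0.00525) and in differentiation 1 (0.0356), CEPT1 with the replicate block (-0.00237), voom (-0.00294) and in differentiation 2 (-0.0341), PEMT in differentiation 1 (0.0786) and PISD in differentiation 2 (-0.0232). With each clone left out the genotype difference ranged from -0.256 to 0.0182 for PTDSS2, -0.137 to 0.019 for PCYT2, -0.0405 to 0.047 for ETNK1, -0.0499 to 0.017 for SELENOI, -0.0306 to 0.0369 for CEPT1 and -0.198 to 0.105 for PEMT. The differentiation difference ranged from -0.0518 to 0.0102 for PISD, -0.0405 to 0.025 for PTDSS1 and -0.0782 to 0.051 for PEMT. The interaction ranged from -0.248 to 0.012 for PTDSS2, -0.0718 to 0.194 for PCYT2, -0.076 to 0.0959 for ETNK1 and -0.193 to 0.0149 for SELENOI.

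The design holds 3 clones per genotype, 1 of them with much of its LACTB transcript, and changes inside the 95% intervals are below its reach. PEMT, at 129 to 213 counts per library, had the widest interval.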

Other observations

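Outside the members, 4 of the 11 genes of the PS transfer list had an unadjusted p under 0.05 between differentiations and were higher in differentiation 2, beside 5.60% of all genes. Over all 7 lists, 5 of 63 genes tested were higher at that p and 4 were lower. The 4 of the PS transfer list included VPS13D (log2 fold change 0.33, SE 0.0894, adjusted p = 0.338) and VPS13C (0.37, SE 0.101, adjusted p = 0.338), which move lipids between membranes at contact sites, each higher in 5 of 6 clones. TMEM30A, the shared subunit of PS flippases, differed by 0.27 (SE 0.0825, adjusted p = 0.375), also in 5 of 6 clones. In the other direction TAFAZZIN, which remodels cardiolipin, was lower in differentiation 2 in all 6 clones (-0.28, SE 0.0770, adjusted p = 0.342), with 21.2 to 27.5 CPM in differentiation 1 and 20.2 to 21.6 CPM in differentiation 2. The share of all genes that were lower in all 6 clones was not counted. LPCAT3, which adds polyunsaturated chains to PE and PC, differed by -0.35 (SE 0.117, adjusted p = 0.415), but shares 66.0% of its exon bases with EMG1 on the opposite strand. These genes were picked after their values were seen, and none passed the adjusted threshold in edgeR.

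The genes most like each other member over the 12 libraries were of varied kinds, and the points share clones and culture rounds. PTDSS1 was most like PRPF4 (r = 0.958), MRPL3 (0.957) and ILF2 (0.954), and ETNK1 like MGA (0.975), HERC1 (0.970) and RANBP2 (0.964). PTDSS2 was most like CSTB (0.971), LMAN2L (0.963) and M6PR (0.962). SELENOI was nearest to SLC25A40 (0.948), TIGAR (0.920) and UBR3 (0.915), and PEMT to OSTC (0.924), RABGGTB (0.914) and NAPA (0.909). The lowest values belonged to PISD, with ALKBH6 (0.868), DCTD (0.860) and GSTK1 (0.852), and CEPT1, with RAB6A (0.866), SEC62 (0.852) and SPG21 (0.837). Among the members themselves the pair with the highest correlation was ETNK1 and SELENOI (r = 0.801), which fell to 0.418 with the means of the differentiations removed. PTDSS2 and PEMT had 0.730 and 0.777. PISD and PCYT2, of the mitochondrial and the CDP-ethanolamine route, had -0.115 and -0.0651.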
